A study of Arabidopsis thaliana with 14 samples.

Results

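Joined regions are stretches of the genome listed as 1 H3K36me3 region at 25 °C and as 2 or more separate regions at 16 °C. H3K36me3 is histone H3 trimethylated at lysine 36. The members were chosen by the coordinates of both deposited region lists. A region of the 25 °C list on the 5 nuclear chromosomes was taken when its width was 1000 bp or less and when it overlapped at least 2 regions of the 16 °C list by 1 bp or more. Of 52432 nuclear regions at 25 °C, 49381 were 1000 bp or less in width, and 5314 of these were joined regions (10.8% of them). A further 18362 lay over exactly 1 region of the 16 °C list and 25705 over none. Another 2324 regions wider than 1000 bp also lay over 2 or more 16 °C regions and are not members.

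Arabidopsis thaliana Col-0 was raised at 16 °C for 5 weeks under short days, with 8 h of light and 16 h of darkness. Tissue enriched for the shoot apical meristem with young leaves was taken, 0.5 g per sample. The paper states that leaves were removed with forceps to obtain it. One group was collected at 16 °C and the other 1 day after a move to 25 °C. All plants were of this accession and had the same growth at 16 °C before the move. Chromatin immunoprecipitation and sequencing (ChIP-seq) was carried out with an H3K36me3 antibody in 4 samples of each temperature and with a total H3 antibody in 3. The label of H3K36me3 replicate A at 25 °C names the H3 antibody although its title names H3K36me3. Which is right cannot be told here, and every 25 °C value below rests on a list that pools this group. The study pooled the replicates of a temperature into 1 list, so a joined region has 1 value per temperature and no spread between replicates. Every difference between the temperatures below is therefore a description of 2 lists, with no replicate check, and intervals are Wilson 95% intervals that cover counting error only.

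H3K36me3 is laid down in the bodies of transcribed genes by histone methyltransferases, of which SDG8 is the main one in Arabidopsis. In this plant the mark is known to be strongest in the front part of the gene body, behind the transcription start. Reader proteins bind the mark, and the study asked whether it bears on alternative splicing when ambient temperature changes. A region list reports where the read coverage stood above a calling level, so that a stretch of marked chromatin with a dip in coverage can appear as 2 regions with a gap between them. A joined region marks a place where such a dip parted regions in the 16 °C list but not in the 25 °C list. Short dips could remain within it. Of the 5314 joined regions, 2023 (38.1%) held no base under the calling level at 25 °C. The median was 20 bp of such bases, and the highest value 170 bp. In 162 joined regions (3.05%) they were no fewer than the bases of the 16 °C gaps.

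The sequences below show what such gaps are made of. They are 1 gap each from 8 genes that the study names or that belong to the lists used here, taken in list order, with gaps of 180 bp or less and no untranslated bases in the window. Capitals mark the gap, which was outside the regions at 16 °C and inside the joined region at 25 °C, and lower case marks 20 bases on either side that were inside a region at both temperatures. All are written 5′ to 3′ on the strand of the gene, from RefSeq TAIR10.1, with positions counted from 1. The windows are chr2:12064771-12064990 (plus strand) in SYD, a SWI/SNF chromatin remodeler gene, and chr1:29048531-29048630 (minus strand) in SDG8. PRR7, a clock regulator, gave chr5:640991-641170 (minus strand), and MOS1, a modifier of immune receptor gene expression, chr4:12734861-12735030 (plus strand). SPL2, for a squamosa promoter-binding transcription factor, gave chr5:17362301-17362470 (minus strand). The splicing factor genes SR34, U2AF65B and RS41 gave chr1:627471-627600, chr1:22425651-22425780 and chr5:21131541-21131650, all on the plus strand.

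SYD: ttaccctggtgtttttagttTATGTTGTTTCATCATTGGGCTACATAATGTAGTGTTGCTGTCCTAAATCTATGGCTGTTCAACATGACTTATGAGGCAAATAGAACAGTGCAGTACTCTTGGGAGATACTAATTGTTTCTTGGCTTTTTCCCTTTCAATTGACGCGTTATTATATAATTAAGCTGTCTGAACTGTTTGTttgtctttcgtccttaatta

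SDG8: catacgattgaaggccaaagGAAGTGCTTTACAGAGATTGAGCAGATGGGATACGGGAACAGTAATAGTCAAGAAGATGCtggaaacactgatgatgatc

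PRR7: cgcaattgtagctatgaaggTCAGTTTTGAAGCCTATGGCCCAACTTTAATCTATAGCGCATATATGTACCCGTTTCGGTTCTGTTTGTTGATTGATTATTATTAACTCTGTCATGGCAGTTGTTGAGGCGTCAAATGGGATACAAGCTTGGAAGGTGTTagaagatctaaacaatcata

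MOS1: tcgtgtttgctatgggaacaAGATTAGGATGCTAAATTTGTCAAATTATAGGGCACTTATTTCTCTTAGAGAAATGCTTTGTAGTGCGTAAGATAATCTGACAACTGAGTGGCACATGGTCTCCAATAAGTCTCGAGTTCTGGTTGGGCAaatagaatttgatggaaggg

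SPL2: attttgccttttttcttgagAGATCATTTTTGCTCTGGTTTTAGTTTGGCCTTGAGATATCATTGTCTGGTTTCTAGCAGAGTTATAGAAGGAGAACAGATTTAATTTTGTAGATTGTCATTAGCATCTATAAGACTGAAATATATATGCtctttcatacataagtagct

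SR34: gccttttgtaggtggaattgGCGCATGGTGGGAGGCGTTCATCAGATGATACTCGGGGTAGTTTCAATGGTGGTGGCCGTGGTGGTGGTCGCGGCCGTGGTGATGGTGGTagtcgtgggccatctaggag

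U2AF65B: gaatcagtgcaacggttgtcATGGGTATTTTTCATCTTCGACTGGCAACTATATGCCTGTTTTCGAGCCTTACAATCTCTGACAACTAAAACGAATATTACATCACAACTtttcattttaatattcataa

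RS41: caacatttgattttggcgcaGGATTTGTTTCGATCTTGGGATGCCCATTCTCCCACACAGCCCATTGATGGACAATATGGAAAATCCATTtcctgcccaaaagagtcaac

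The gap in SYD was 180 bp of intron, and those in MOS1, SPL2 and U2AF65B were also wholly intronic, with 130, 130 and 90 bp. The gaps in SDG8, SR34 and RS41 were wholly coding, with 60, 90 and 70 bp. In PRR7 the gap ran from 100 bp of intron into 40 bp of exon. GC content spanned from 32.3% in SPL2 to 61.1% in SR34. The shown gaps thus held neither a common base composition nor a common gene part.

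The shape of the joined regions was described next. Of the 5314 regions, 4515 (85.0%) joined 2 regions of the 16 °C list, 727 joined 3, 67 joined 4, and 5 joined 5. Their median width was 610 bp, against 210 bp for the 25 °C regions over exactly 1 region of the 16 °C list. Of a joined region, a median of 59.4% was already covered at 16 °C, and the gaps between its 16 °C regions summed to a median of 130 bp, from 50 to 870 bp. The 6190 single gaps had a median of 110 bp. No gap was narrower than 50 bp, since the region lists hold no neighbours closer than that. The summed gap was 100 bp or less in 2079 joined regions (39.1%) and over 300 bp in 545 (10.3%). Neighbouring 16 °C regions had their centres a median of 365 bp apart.

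**Figure D1:**
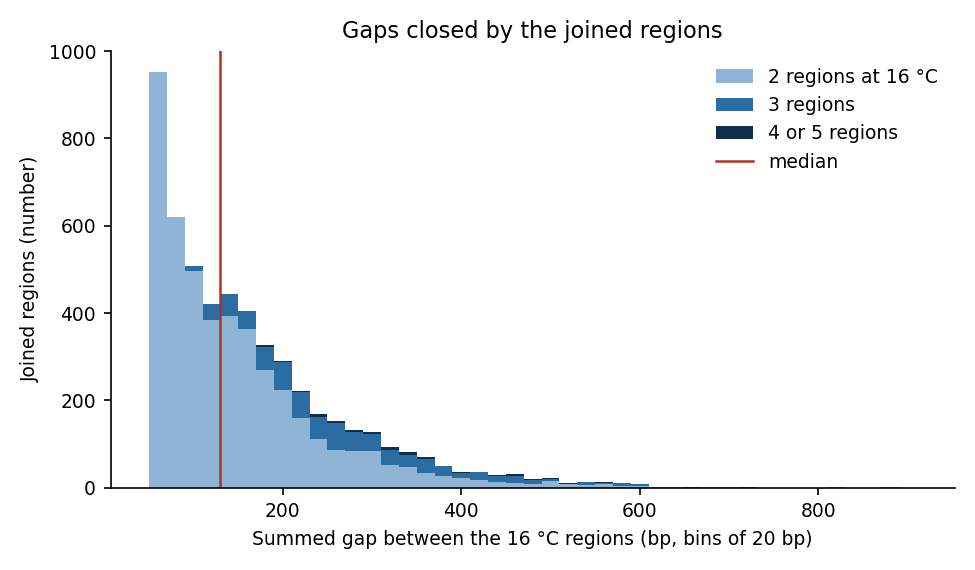
Number of joined regions (vertical axis) by the summed width of the gaps between their 16 °C regions (horizontal axis, bp), with colours for the number of 16 °C regions joined and a line at the median. The counts fall from the narrowest gaps onward, with the median at 130 bp and the widest summed gap at 870 bp.

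The joined regions did not simply enclose their 16 °C regions. Only 844 (15.9%) held all of them entire, 2590 had a 16 °C region reaching past 1 of their ends, and 1880 past both ends. A median of 6.67% of a joined region lay outside the outermost 16 °C regions. In 3184 joined regions (59.9%, interval 58.6 to 61.2) no 16 °C region taking part overlapped any other 25 °C region, and such joins are called closed here. The smallest overlap with a 16 °C region was 20 bp or less in 755 joined regions, so that part of the membership rests on a short stretch at an edge.

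The width limit of the rule cuts through a continuous series. Of 63 regions exactly 1000 bp wide, 40 lay over 2 or more 16 °C regions, and of 72 regions of 1010 bp, just outside the rule, 48 did. The share of joined regions rose with width, from 0.695% of regions of 40 to 200 bp to 12%, 34.3%, 51% and 62.3% in the following classes up to 810 to 1000 bp. Since a wide region can reach more neighbours, this order is part of the rule and not a result.

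The opposite event was counted in the same way. Of the 16 °C regions of 1000 bp or less, 3933 lay over 2 or more 25 °C regions and are called split. Joined regions made up 22.4% (21.9 to 23.0) of the 25 °C regions within the width limit that overlapped any 16 °C region, and split regions 12.6% (12.2 to 13.0) of the 16 °C regions that overlapped any 25 °C region. There were 1.35 joined regions per split region. Among split regions, 1582 (40.2%, 38.7 to 41.8) were closed, a smaller share than among joined regions.

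To put both directions on 1 footing, every gap of 1000 bp or less between neighbouring regions of a list was followed into the other list. Of 32332 such gaps at 16 °C, 10537 (32.6%, 32.1 to 33.1) were bridged at 25 °C by a region of any width, 6190 of them by a joined region. Of 34522 gaps at 25 °C, 4942 (14.3%, 13.9 to 14.7) were bridged at 16 °C. The narrowest gaps, of 50 bp, were bridged in 59.3% at 25 °C and in 33.8% in the reverse direction. Gaps over 200 and up to 300 bp were bridged in 26.2% and 5.50%, and gaps over 500 and up to 1000 bp in 2.72% and 0.141%.

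This excess was larger inside genes. Where the gap was inside 1 protein-coding gene, 36.7% (36.1 to 37.3) of 28127 gaps were bridged at 25 °C, against 15.9% (15.5 to 16.3) of 29959 in reverse. For the other gaps the shares were 5.09% (4.47 to 5.79) of 4205 and 4.12% (3.58 to 4.74) of 4563. Gaps of 50 bp that were not inside a gene were bridged in 20.2% (13.2 to 29.7) of 89 at 25 °C and in 32.2% (23.5 to 42.4) of 90 in reverse, so their order was turned, with overlapping intervals. For gaps of 51 to 100 bp outside a single gene, the shares were 24.8% and 24.2%. At over 100 and up to 200 bp they were 10.4% and 9.08%. For wider gaps they were higher at 25 °C, with 4.31% (3.05 to 6.05) and 2.90% (1.90 to 4.39) for gaps over 200 and up to 300 bp, and 2.14% (1.36 to 3.36) and 0.981% (0.517 to 1.85) for those over 300 and up to 500 bp, again with overlapping intervals.

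**Figure D2:**
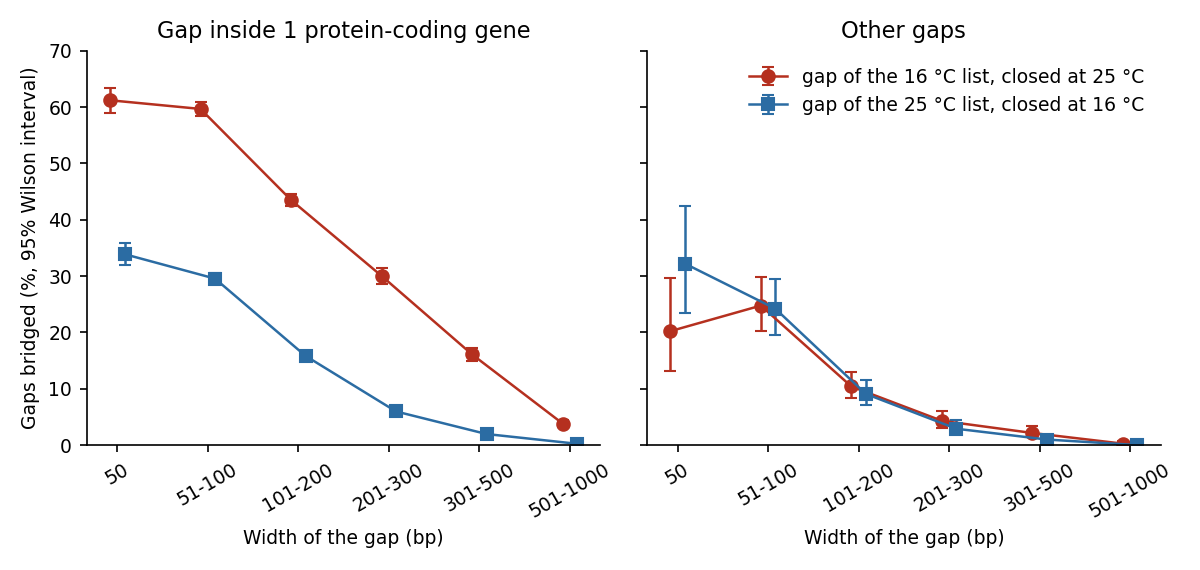
Percent of gaps between neighbouring regions that were bridged in the other list (vertical axis, with Wilson 95% intervals) by the width of the gap in bp (horizontal axis), for gaps inside 1 protein-coding gene (left) and all other gaps (right). Circles are gaps of the 16 °C list closed at 25 °C and squares gaps of the 25 °C list closed at 16 °C, and inside genes the circles stand above the squares in every width class, with 61.2% against 33.9% at 50 bp.

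The 2 lists differ as wholes in ways that touch these counts. Nuclear regions covered 11977030 bp at 16 °C and 16000080 bp at 25 °C. Chloroplast regions held 51% of the listed signal at 16 °C and 37.3% at 25 °C, while the lowest listed height was nearly equal, at 179.4 and 179.3. A height is the highest read coverage in a region, as the study's caller gave it. The part of the larger nuclear share at 25 °C in the joining of regions was not tested.

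Heights were read beside the widths as a description, since they come from the same coverage that defined the regions. Joined regions had a median height of 474, and the tallest 16 °C region within each had a median of 386. The joined region was taller than that one in 3874 cases (72.9%), by a median ratio of 1.23, and in 2601 of the 3184 closed joins (81.7%). Regions over exactly 1 region of the 16 °C list were taller than it in 49.8%. These regions are narrower. Within width classes the median ratios were much alike up to 600 bp, and higher for joined regions in the wider classes. They were 1.08 for joined regions and 1.12 for regions over 1 at 210 to 400 bp, and 1.23 and 1.23 at 410 to 600 bp. At 610 to 800 bp they were 1.30 and 1.22, and at 810 to 1000 bp 1.30 and 1.17. At 40 to 200 bp both fell below the 16 °C height, with 0.866 and 0.857.

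The total signal of a joined region was larger than that of its 16 °C regions together in 68.0% of cases and in 87.9% of closed joins. Not every join came with a higher peak, and 1440 of the 5314 joined regions were no taller than the tallest 16 °C region they overlapped. Of these, 583 were closed joins. In the others a 16 °C region also lay under another 25 °C region, and its height may belong to a stretch outside the joined region.

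Beside the gaps, the 16 °C regions were also somewhat taller where a gap was bridged. Among gaps of 200 bp or less inside 1 gene, the lower of the flanking 16 °C regions had a median height of 257 where a joined region closed the gap, 279 where a wider region did, and 243 where none did. The same order held in reverse, with 297, 336 and 259 for 25 °C gaps closed at 16 °C.

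Joined regions lay in genes. Of the 5314, 5239 (98.6%) had their centre in a protein-coding gene and 4894 (92.1%, 91.3 to 92.8) lay entirely within 1 gene. For regions over exactly 1 region of the 16 °C list the latter share was 88.3% (87.8 to 88.8), although these are narrower, and for regions over none it was 79.9%. All 5 chromosomes carried joined regions at like density, from 41.5 per Mb on chromosome 3 to 48.9 per Mb on chromosome 5, with 1368, 852, 973, 802 and 1319 regions on chromosomes 1 to 5.

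Within genes the closed gaps lay toward the front. The middle of a gap of a joined region was a median of 794 bp behind the gene start, with an interquartile range of 504 to 1413 bp, and 21.9% of gaps lay between 500 and 750 bp. The gaps inside genes that were not bridged had a median of 1302 bp, with 10.2% between 500 and 750 bp. Gaps closed by regions over 1000 bp stood at a median of 1087 bp. Because wide regions drop out of the rule, the place of all bridged gaps was also looked at.

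Of all gaps of 200 bp or less inside 1 gene, 44.0% (41.2 to 46.8) of those within 250 bp of the gene start were bridged at 25 °C. The share was 61.0% between 250 and 500 bp and 63.0% (61.0 to 64.8) between 500 and 750 bp, then fell to 48.0% between 1000 and 1500 bp and to 40.7% (38.3 to 43.2) beyond 3000 bp. Counting only gaps closed by a joined region, the shares were 47.2% between 250 and 500 bp, 45.7% between 500 and 750 bp, and from 21.7% to 24.3% in the bins beyond 1000 bp. Closing at 16 °C of 25 °C gaps followed the same course at a lower level, with 27.9%, 36.9%, 33.3% and 16.0% in the bins from 0, 250, 500 and 3000 bp. Both directions thus had their highest shares between 250 and 750 bp, at different levels.

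**Figure D3:**
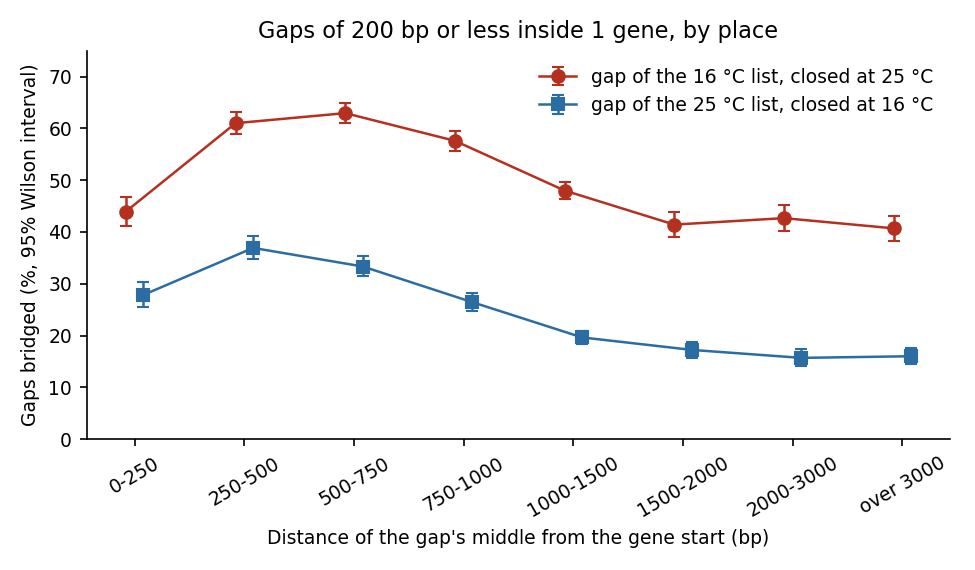
Percent of gaps of 200 bp or less inside 1 protein-coding gene that were bridged in the other list (vertical axis, with Wilson 95% intervals) by the distance of the gap's middle from the gene start in bp (horizontal axis, bins of unequal width). Circles (16 °C gaps closed at 25 °C) peak at 63.0% between 500 and 750 bp, and squares (25 °C gaps closed at 16 °C) at 36.9% between 250 and 500 bp.

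Among 5205 joined regions centred in exactly 1 gene, 36.3% (35.02 to 37.6) reached past their outermost 16 °C regions toward the gene start. Toward the gene end 39.0% (37.7 to 40.3) did.

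The sequence of the gaps was next set beside the parts covered at both temperatures. Coding sequence made up 51% of gap bases, introns 39.0% and 5′ untranslated regions 8.00%. In the parts already covered at 16 °C these were 49.9%, 38.1% and 9.83%. The outer parts, newly covered beyond the 16 °C regions, held more 5′ untranslated sequence, with 16.3%, and less coding sequence, with 45.5%. Of the whole nuclear genome, coding sequence makes up 28.3% and introns 15.2%. Of the 6190 gaps, 2713 (43.8%) held both exon and intron bases, 1695 (27.4%) lay all within coding sequence and 1056 (17.1%) all within intron.

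Base composition differed little between the gaps and their surroundings. GC content was 39.3% in the gaps and 39.5% in the covered parts, against 36% genome-wide. Gaps were lower in GC than the covered parts of the same region in 2539 of the 5277 regions where they differed (48.1%). The median difference per region, gap minus covered parts, was 0.28 percentage points, so that gaps were slightly higher by this measure. Runs of 6 or more A or of 6 or more T, which are known to disfavour nucleosomes, occurred 1.43 times per kb in gaps, 1.56 in covered parts and 2.76 in the genome. Among gaps of 200 bp or less inside genes, those closed by joined regions held 52.0% coding sequence and those not bridged 48.6%. Such runs occurred 1.38 and 1.75 times per kb in them, and their intron shares were 38.9% and 39.0%. Gaps closed by wider regions were left out of this comparison, and gap width was not matched.

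The centres of joined regions fell in 4398 of 27444 protein-coding genes (16.0% of genes). Of these, 3752 held 1 joined region, 498 held 2, 104 held 3 and 44 held more. Genes with a joined region were long and rich in exons, with a median length of 2930 bp and 8 exons. Genes with 2 or more 16 °C regions and no joined region had 2795 bp and 6 exons, and all protein-coding genes 2078 bp and 4 exons. The sets also differed in their median number of 16 °C regions, with 4, 3 and 1 in the same order. Of 10958 genes that overlapped 2 or more regions at 16 °C, 39.96% held the centre of a joined region, and 19 genes with fewer such regions also did, since a joined region can reach past the gene. Gene length therefore weighs on every count of genes, from 0.291% of the shortest of 20 length classes with a joined region to 49.8% of the longest.

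The genes with the most joined regions were long. AT5G24740, for a putative vacuolar sorting protein, and AT4G30990, for an ARM repeat protein, held 10 each over 20157 and 13889 bp. In AT5G24740 all 10 were taller than the 16 °C regions they joined, and their gaps summed to 2050 bp. In AT4G30990 6 of 10 were taller. AT1G48090, for a calcium-dependent lipid-binding family protein, held 8, and GSL10, for a callose synthase-like protein, held 7.

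SYD held 7 joined regions over its 17067 bp. The gene had 23 regions at 16 °C and 19 at 25 °C. The joined regions stood between 5118 and 10788 bp behind the gene start, with summed gaps from 50 to 340 bp. Their heights at 25 °C were from 282 to 669, and 6 of the 7 were taller than the tallest 16 °C region within them. The lowest of them, with 282, touched the edge of a 16 °C region of 309 that also lay under other 25 °C regions. These 7 regions thus lay in the middle of the gene rather than in the first kilobase. SYD also held 1 join wider than 1000 bp, whose place is not given here.

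Among genes for H3K36 methylation and its readers, 3 of 9 held a joined region (33.3%, 12.1 to 64.6), beside 39.0% of genes with as many 16 °C regions. SDG8 held 2, near its start, and also 2 joins wider than 1000 bp. The one at chr1:29048260-29049080 joined 3 regions of 16 °C that were 187 to 299 in height and itself had 642. The one at chr1:29047660-29048170 joined 2, of at most 370, and had 658. Both were closed, and together they bridged 410 bp, nearly all of it coding. SDG25, for a related SET-domain protein, had 1 over 190 bp of intron, with 592 at 25 °C against 494. SDG7 also held 1. SDG26, the readers MRG1 and MRG2, and the demethylase gene JMJ30 held none, though each had 2 or 3 regions at 16 °C.

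Splicing regulators held joined regions in 12 of 34 genes (35.3%, 21.5 to 52.1), and genes with as many 16 °C regions in 35.4%. RS41, for an SR protein, had 2, and the larger bridged 540 bp at chr5:21130580-21131320, with 27.0% of its width covered at 16 °C. Its height was 551 against 370 for the tallest 16 °C region. U2AF35B, for the small subunit of the factor that recognises 3′ splice sites, had a 510 bp gap closed, with heights of 610 at 25 °C and at most 260 at 16 °C. SR34 went from heights of 448 and 513 in its separate regions to 724. U2AF65B, for the large subunit, had 361 against 346. PTB2 and PTB3, for polypyrimidine tract-binding splicing regulators, held no joined region. They had 7 regions each at 16 °C and 2 and 3 at 25 °C, with 1 wider join each.

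Of 27 flowering time genes, 7 held a joined region (25.9%, 13.2 to 44.7), beside 33.8% of genes with as many 16 °C regions. Among the 7 were the floral repressors MAF2 and MAF3. In MAF3, the joined region at chr5:25987680-25988200 linked a pair of 40 bp regions across 340 bp of intron. Their heights were 211 and 220, and the joined region had 397. MAF2 had 430 at 25 °C and at most 216 at 16 °C, across 250 bp annotated as 5′ untranslated in some transcript. Its joined region was centred 1347 bp behind the gene start. The MAF genes are close relatives that lie next to each other, and how reads shared by copies were placed is unknown here, so their values are uncertain, as are those of ACT7 among the actin genes. FLM had 6 regions at 16 °C and 7 at 25 °C, and FCA 14 and 9, and neither held a joined region. FCA held 1 join wider than 1000 bp, and FLM none. SPL2 joined 2 regions across 130 bp with no rise in height, 312 against 316.

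Of the lists of known genes, the circadian clock list had the largest share, 8 of 19 genes (42.1%), with an interval of 23.1 to 63.7 that overlapped those of all the others. Genes with as many 16 °C regions had 34.2% and genes of like length 22.0%, which lay just under that interval. LUX, of the evening complex, held 1 of the 5 tallest joined regions centred in a gene, with 1134 at 25 °C, against 759 and 183 in the 2 regions it joined across 90 bp. PRR7 had 782 against at most 493. In LHY, a morning transcription factor gene, the joined region had 536, against 207 and 657, the latter in a 16 °C region that it shared with another 25 °C region. LKP2, for a LOV-domain F-box protein, held 2. The first had 364 against 317 and 217 in its 16 °C regions, and the other 649 against 788 and 260. TOC1, RVE6, RVE8 and LNK1 also held joined regions.

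The smaller lists gave single cases. HSP101, a heat shock disaggregase gene, had the widest gap of the temperature list. Its joined region at chr1:27939510-27940220 closed 440 bp between 3 regions with heights of 225, 228 and 232, and stood at 699. COP1, for a ubiquitin ligase of light signalling, joined 3 regions, with 634 against 556. These were 2 of the 10 genes of this list (5.67 to 50.98%), beside 36.8% of genes with as many 16 °C regions. PIF4, HSFA1A and ARP6 had 2 to 5 regions at 16 °C and no joined region, and HSP90.1 had no region in either list.

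PSBO1, for a subunit of the oxygen-evolving complex of photosystem II, joined 4 regions across 410 bp. The 4 heights were 230, 233, 271 and 366, and the joined region had 517. LHCB5, for an antenna protein, joined 2 regions and was lower, with 359 against 472. Together with PSAD1 these were 3 of 17 photosynthesis genes (17.6%, 6.19 to 41.0), beside 21.3% of genes with as many 16 °C regions. Of 13 shoot meristem genes, CLV2, for a receptor-like protein of the CLAVATA pathway, REV and PHV, for class III homeodomain-leucine zipper factors, held joined regions (23.1%, 8.18 to 50.3), beside 16.8% of genes with as many 16 °C regions. In CLV2 the joined region had 537 and its 2 regions of 16 °C had 443 and 216. REV had 738 against 540 across a 340 bp gap.

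Transcript elongation genes held joined regions in 5 of 13 (38.5%, 17.7 to 64.5), beside 43.3% of genes with as many 16 °C regions. VIP6, of the PAF1 complex, joined 3 regions over 300 bp of gap, with 468 against 378. NRPB1, for the largest subunit of RNA polymerase II, joined 2 across 290 bp, with 452 against 356. SPT6L had 15 regions at 16 °C and 4 at 25 °C with no joined region, and 2 joins wider than the limit. Auxin genes had 3 of 14 (21.4%, 7.57 to 47.6), beside 20.1% by the same comparison. Of these, CUL1 and ASK1 encode parts of the SCF ubiquitin ligase. In CUL1 the joined region overlapped its 16 °C regions by only 30 bp in all, so their heights are not comparable. In ASK1 it had 870 against 671. Of 9 reference genes of even expression, ACT7, SAND and TIP41 held a joined region (33.3%, 12.1 to 64.6), beside 31.9% by the same comparison. ACT7, for a vegetative actin, joined 3 regions across 350 bp, with 558 against 280.

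**Figure D4:**
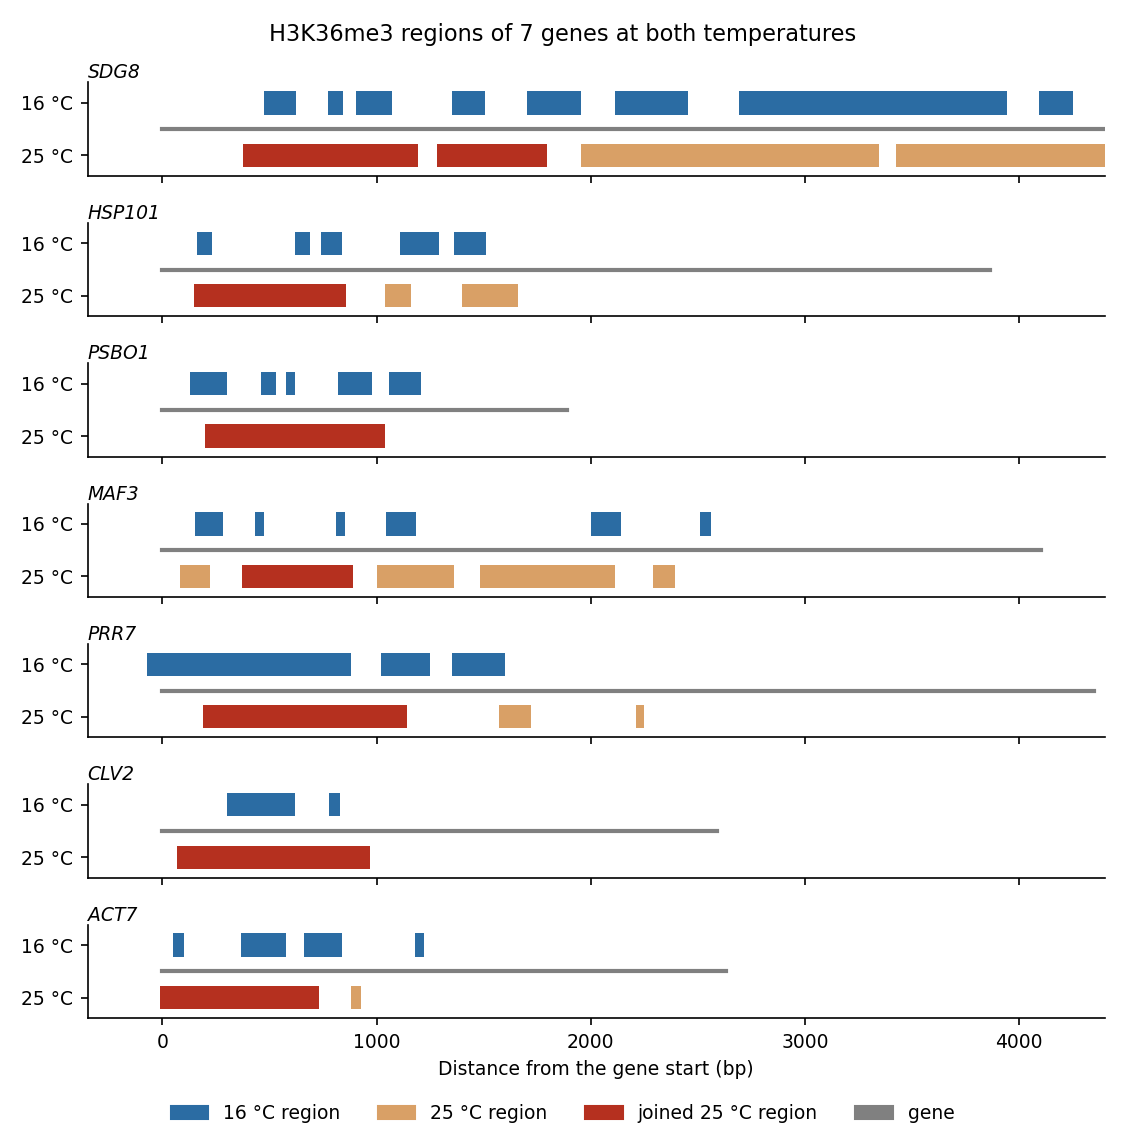
H3K36me3 regions of 7 genes by distance from the gene start in bp (horizontal axis, with SDG8 going on past the right edge), with 16 °C regions above and 25 °C regions below the line that marks the gene, and joined regions in red. In HSP101, PSBO1, CLV2 and ACT7 a single red bar stands under 3, 4, 2 and 3 bars of 16 °C, and SDG8 has 2 red bars.

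The extreme members were of other kinds. The 5 that joined 5 regions each lay in BGLU42, AT3G24480, SHV3, ARK2 and AT1G60230. In AT3G24480, for a leucine-rich repeat protein encoded in 1 exon, the joined region covered 760 bp, of which 30.3% was covered at 16 °C by 5 regions of 192 to 256 in height, and had 420. The widest summed gap, 870 bp in ARIA, for an ARM repeat protein, left 9.38% of the joined region covered at 16 °C, and 73.3% of the gap was intron. In emb2410 it was 810 bp, in IM, for a plastid terminal oxidase, 710 bp, in AT1G42440 700 bp and in SUT4, for a sucrose transporter, 680 bp. In all 5 the widest single gap held more intron than coding sequence, with an intron share from 53.4% in SUT4 to 73.3% in ARIA. The tallest joined regions of all, with heights of 2139 and 1491, lay on chromosome 5 with their centres in no protein-coding gene. Among those centred in a gene, the 5 tallest lay in SDP6, AT2G35490, AT3G53670, LUX and RPT3, with heights from 1412 to 1126 and narrow gaps of 50 to 90 bp.

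The study also sequenced RNA after the same move to 25 °C, and its gene lists were followed here by membership only. The annotation held 482 of 510 listed genes with differentially spliced events and 1245 of 1301 listed differentially expressed genes as nuclear protein-coding genes, and the others were not used. Of the 482 genes with differentially spliced (DiS) events, 179 (37.1%, 32.9 to 41.5) held a joined region, and of 293 with an event at day 1, 105 (35.8%, 30.6 to 41.5). Over all genes of the same length classes the share was 26.9%, and over all genes with as many 16 °C regions 39.7%. Of 1245 differentially expressed genes (DEGs) of day 1, 134 (10.8%, 9.16 to 12.6) held one, where genes of like length had 15.7% and genes with as many 16 °C regions 10.7%. Both lists were thus near the share of genes with equally many regions at 16 °C. DiS genes had a mean of 4.14 such regions and DEGs 1.14. Of the 246 joined regions in DiS genes, 208 (84.6%) were taller than the tallest 16 °C region within, and of the 146 in DEGs 103 (70.5%), beside 72.9% over all joined regions. These shares were not matched for width or for closed joins, of which 81.7% were taller over all genes. The 246 regions lay in 179 genes, and the cause of the difference was not tested.

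**Figure D5:**
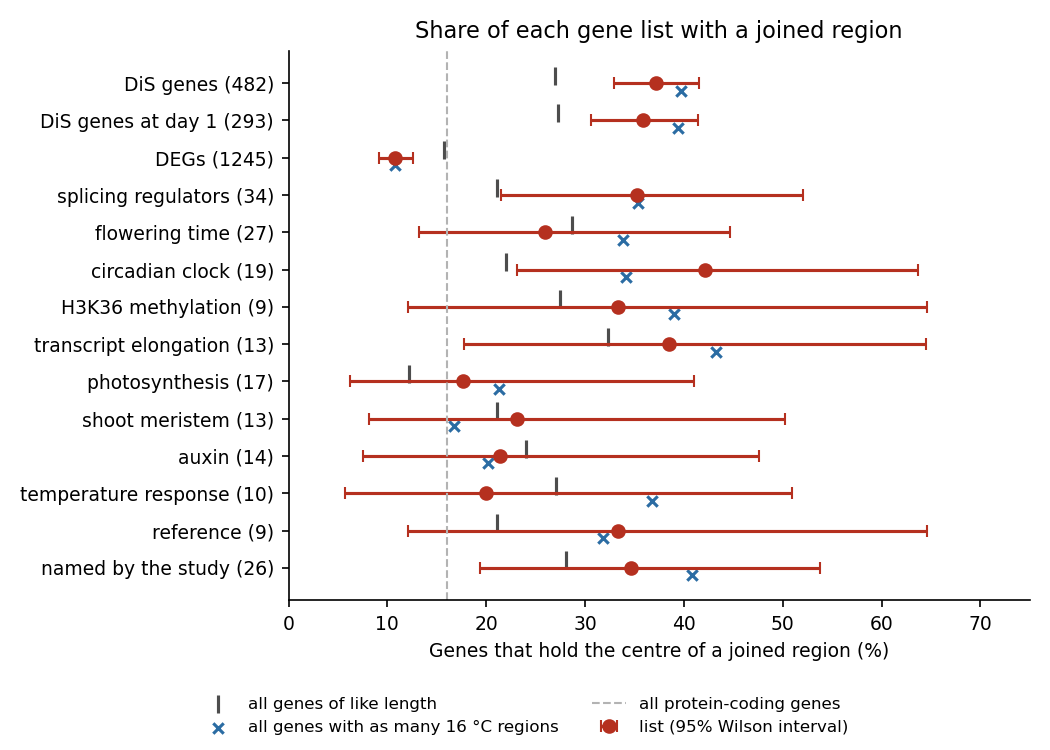
Percent of the genes of each list that held the centre of a joined region (horizontal axis, circles with Wilson 95% intervals, number of genes in brackets), beside all genes of like length (bars), all genes with as many 16 °C regions (crosses) and all protein-coding genes (dashed line at 16.0%). DiS genes stand at 37.1% and DEGs at 10.8%, each close to its cross.

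For each of the other lists given above, the share of genes with as many 16 °C regions lay within the interval of the list. The shoot meristem, leaf and root marker genes held no joined region, beside 0.288%, 15.5% and 0.108% of genes with as many 16 °C regions. Only 2 of them, both leaf markers, had 2 or more regions at 16 °C, so the rule left the others little room for one. Of 6 shoot meristem markers, 4 carried a region in the 16 °C list and 2 in the 25 °C list. Of 4 leaf markers, 4 and 3 did, and of 4 root markers 1 and 0.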

How the data were processed

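H3K36me3 was profiled by ChIP-seq in 8 samples, with 6 H3 samples beside them. The authors mapped reads to TAIR10 (Bowtie2 in the processing notes, Bowtie in the methods, no version given) and called regions with Dpeak of DANPOS2, extending reads to 150 bp and pooling replicates. The deposited lists give each region a start and end in steps of 10 bp, a height and total signal (read coverage), and the −log10 p-value of the height. The use of H3 in calling is not stated in these sources, and read depth per sample is unknown. Regions were joined by overlap of half-open intervals with Python 3.11.15, numpy 2.4.6 and pandas 2.3.3, and checked on simulated data. Genes came from RefSeq TAIR10.1, with 27444 nuclear protein-coding genes. A base coding in any transcript counted as coding. Any other base untranslated in some coding transcript counted as untranslated, even where it was intron in others. Shares for genes of like length average 20 length classes, and those for genes with as many 16 °C regions average counts told apart up to 8. Only membership was used of the study's DiS genes, of any time point, and of its DEGs.

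The members and gene lists were chosen with earlier results of these data known. Named genes were, among joined regions centred in a protein-coding gene, the 5 with the most 16 °C regions, the 5 with the widest summed gap, the 5 tallest, then the 5 genes with the most joined regions, genes the study names, and the 2 members of each list with the widest summed gap. Other members of those lists were named after their values were seen. Alternatives changed the overlap, the lists by width, height or p, the width limit and the genes used.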

Additional observations from a re-analysis of the deposited data

Results flagged for a closer look

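Outside the nuclear chromosomes, 13 of 107 mitochondrial regions of 1000 bp or less in the 25 °C list lay over 2 or more 16 °C regions. By the same rule 5314 of 49381 nuclear regions (10.8%) did, so the mitochondrial count stands near the nuclear share. The mitochondrial genome was left out of the members, and its DNA is known not to be packed in nucleosomes. The signal was found in data that the comparisons above do not use, and its source was not tested.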

How the results depend on the processing

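No paired analysis was possible because the replicates were pooled before the regions were called, and no replicate could be left out for the same reason. Joined regions outnumbered split regions under every alternative run, with 1.35 per split region as reported and from 1.14 to 2.61 otherwise. With an overlap of at least 50 bp the ratio was 1.57, 19.3% of overlapping 25 °C regions joined, 25.6% of gaps were bridged, and 31.1% of DiS genes and 8.27% of DEGs held a joined region. With an overlap of at least 0.5 of each 16 °C region there were 2859 joined regions, 2.61 per split region and 18.7% of overlapping regions. Then 21.3% of gaps were bridged, 90.8% of joined regions lay in 1 gene, introns made up 37.5% of gap bases, and 23.7% of DiS genes and 6.27% of DEGs held one. Without regions narrower than 100 bp these were 1.22 per split region, 20.9% joining, a median gap of 120 bp, 37.5% of gaps bridged, and 29.7% and 8.51% of genes. The stronger part of each list by p-value, at or above its median, gave 2349 joined regions, 1.14 per split region, 17.4% joining, a median gap of 120 bp, 39.3% of gaps bridged, and 20.5% and 5.14% of genes. Without the 10% of regions lowest in height, 34.1% of gaps were bridged. With no width limit there were 1.72 per split region, 28.6% joining, a median gap of 150 bp, 88.3% in 1 gene, and 54.1% of DiS genes and 14.0% of DEGs. Counting only genes that overlap no other gene put 61.6% of joined regions within 1 gene, since fewer genes were counted. Closed joins only, an alternative chosen after seeing the data, gave 3184 regions, 2.01 per split region, 13.5% joining, 91.0% in 1 gene, 37.2% intron, and 24.3% and 7.47% of genes. GC content of the gaps was from 39.21% to 39.55% in the alternatives, against 39.29% as reported. For shifts other than those from counting fewer genes or regions, the cause was not tested.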
